A study of Drosophila melanogaster with 10 samples.

Results

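Aminoacyl-tRNA synthetases are the enzymes that join each amino acid to its transfer RNA, and their genes were followed here in Drosophila melanogaster notum and flight muscle, in a control and in an Rbf RNA interference genotype. The genes were taken from the deposited count table by name: every gene whose FlyBase symbol is an amino acid abbreviation followed by RS, or by RS-m for the mitochondrial enzyme, with the prefixes alpha and beta and the fused GluProRS included. The rule used no measured value and found 35 of the 15259 genes matched in the table, 20 cytosolic and 15 mitochondrial. Cytosolic here means only a symbol without -m. GlyRS, HisRS, LysRS, ThrRS and GlnRS had no -m partner among these genes, and where in the cell their enzymes act was not tested. Each gene was represented by its transcript of highest total count. Total RNA was sequenced from the notum region of wing discs of wandering larvae, where the precursors of adult muscles lie, and from flight muscle dissected 96 h after pupa formation, with all animals kept at 25 °C. Every animal carried P{UAS-Dicer2.D}1, which strengthens RNA interference, and a Mef2-GAL4 driver, which is active in the muscle lineage and not in disc epithelium. The group labelled WT also carried P{UAS-mCherry-RNAi}attP2, a hairpin against a fluorescent protein that flies lack. The group labelled Rbf-KD carried P{UAS-Rbf-RNAi[GD:10696]}, aimed at Rbf (a fly member of the retinoblastoma protein family), in place of the mCherry hairpin, and a comparison of the groups also holds any other difference between these stocks. Each genotype had 3 libraries of notum and 2 of flight muscle.

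A synthetase activates its amino acid with ATP and transfers it to the 3′ end of the matching tRNA, so each step of protein synthesis depends on these enzymes. Animal cells run separate translation systems in the cytosol and in mitochondria, and the mitochondrial system makes only the few proteins encoded by the mitochondrial genome, which are core subunits of the respiratory chain and ATP synthase. Most amino acids have a cytosolic enzyme and a separate mitochondrial enzyme encoded by another nuclear gene. The cytosolic glutamyl and prolyl enzymes are fused in the bifunctional protein GluProRS, the cytosolic phenylalanyl enzyme is built of alpha and beta subunits, and the mitochondrial phenylalanyl enzyme PheRS-m is a separate, single-chain protein. Insect flight muscle is packed with mitochondria and myofibrils.

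Counts assigned to genes totalled 42097050 to 55401980 in a library of notum and 53864590 to 73408335 in a library of flight muscle. Nothing in the labels says that libraries of a group came from separate sets of animals, so p-values measure the spread between these libraries, which may be technical. The targeted gene went against its label in flight muscle: its counts were 187 and 203 in WT, against 1210 and 1454 in those labelled Rbf-KD (log2 fold change 1.48, adjusted p = 0.00229). The notum counts were 4346, 5179 and 4643 for WT, against 4025, 4081 and 4336 for those labelled Rbf-KD (log2 -0.25, adjusted p = 1.00). The sarcomere markers and the sum of the disc epithelium markers went with the labels. Of the sarcomere genes, 10 of 10 were higher in WT flight muscle than in WT notum. The disc epithelium list summed to between 913 and 1356 CPM (counts scaled to a common library size) in WT notum and between 130 and 167 CPM in WT muscle. Of its 6 genes 4 were lower and 0 higher in WT muscle, beside 43.4% and 33.3% of all genes tested, and the tissues overlapped in sr and nub. The muscle precursor list was mixed, with sums between 136.7 and 216.8 CPM in WT notum and between 183.2 and 204.5 CPM in WT muscle. Of its 5 genes 3 were lower and 1 was higher in WT muscle, and 5 were lower with scaling by library total. In this list twi and E(spl)m6-BFM had at most 3 counts in each WT muscle library. By contrast, htl had 47.9, 48.9 and 45.5 CPM in WT notum and 107.9 and 93.7 CPM in WT muscle. Both notum libraries of replicate 1 stood apart from the other notum libraries and deviated together (correlation of their deviations from the group means 0.673 across genes, which are not independent replicates). Without them the counts of synthetase calls between the tissues and in notum were the same as with them. In bulk RNA, fewer cells of a type and less RNA per cell cannot be told apart.

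Scaling decides the direction of many values between these groups. Sarcomere genes summed to between 152 and 214 CPM in WT notum, between 794091 and 821040 CPM in WT muscle and between 270660 and 283118 CPM in muscle labelled Rbf-KD, all on a scale set by trimmed means of M-values (TMM), which sets aside genes of extreme fold change. Scaling by the library total in place of TMM moved the median log2 fold change of all genes from -0.50 to -3.24 between the tissues and from 0.10 to 1.20 between the muscle genotypes. A gene already lower between the tissues, or higher between the muscle genotypes, thus kept its direction by library total by construction. For such genes, agreement between TMM and library total is no separate support. TMM values are given throughout, and each direction that library-total scaling turned is named with it. Ratios of counts within a library do not depend on scaling. A gene is called higher or lower where the adjusted p of edgeR's quasi-likelihood F test, taken over all genes tested, was under 0.05. All 35 synthetase genes passed the filter on low counts in every comparison.

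In WT notum the cytosolic genes stood above the mitochondrial genes. Per kilobase of transcript, on the TMM scale of all 10 libraries, the mean levels of the 20 cytosolic genes ran from 17.6 to 79.9 CPM per kb (median 35.3), a span of 4.55-fold, and those of the 15 mitochondrial genes from 4.19 to 17.5 CPM per kb (median 6.92). AlaRS was highest at 79.9 ± 5.23 CPM per kb (SD, n = 3), followed by AspRS at 75.7 ± 3.87 and SerRS at 74.5 ± 2.43 CPM per kb, which lay within each other's spread. The lowest cytosolic gene, beta-PheRS (17.6 ± 4.98 CPM per kb), and the highest mitochondrial gene, AspRS-m (17.5 ± 3.85 CPM per kb), did not differ beyond their spread. At the bottom were GluRS-m at 4.59 ± 0.397 and ValRS-m at 4.19 ± 0.318 CPM per kb.

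In WT flight muscle the order was broken up. The highest of the 35 genes was a mitochondrial one, PheRS-m, at 207 ± 18.8 CPM per kb (SD, n = 2), above AspRS at 97.9 ± 4.21 and GluProRS at 82.6 ± 1.63 CPM per kb. TrpRS-m stood next at 70.1 ± 9.40 CPM per kb. AlaRS, the highest gene of notum, was at 6.51 ± 0.50 CPM per kb, and the lowest were MetRS at 3.96 ± 0.375, MetRS-m at 3.35 ± 1.05 and IleRS-m at 1.96 ± 0.430 CPM per kb. The spans were 24.7-fold among cytosolic and 106-fold among mitochondrial genes. In muscle labelled Rbf-KD they were narrower, 11.9-fold and 19.6-fold, with PheRS-m (122 CPM per kb) and IleRS (109 ± 18.1 CPM per kb) at the top.

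**Figure D1:**
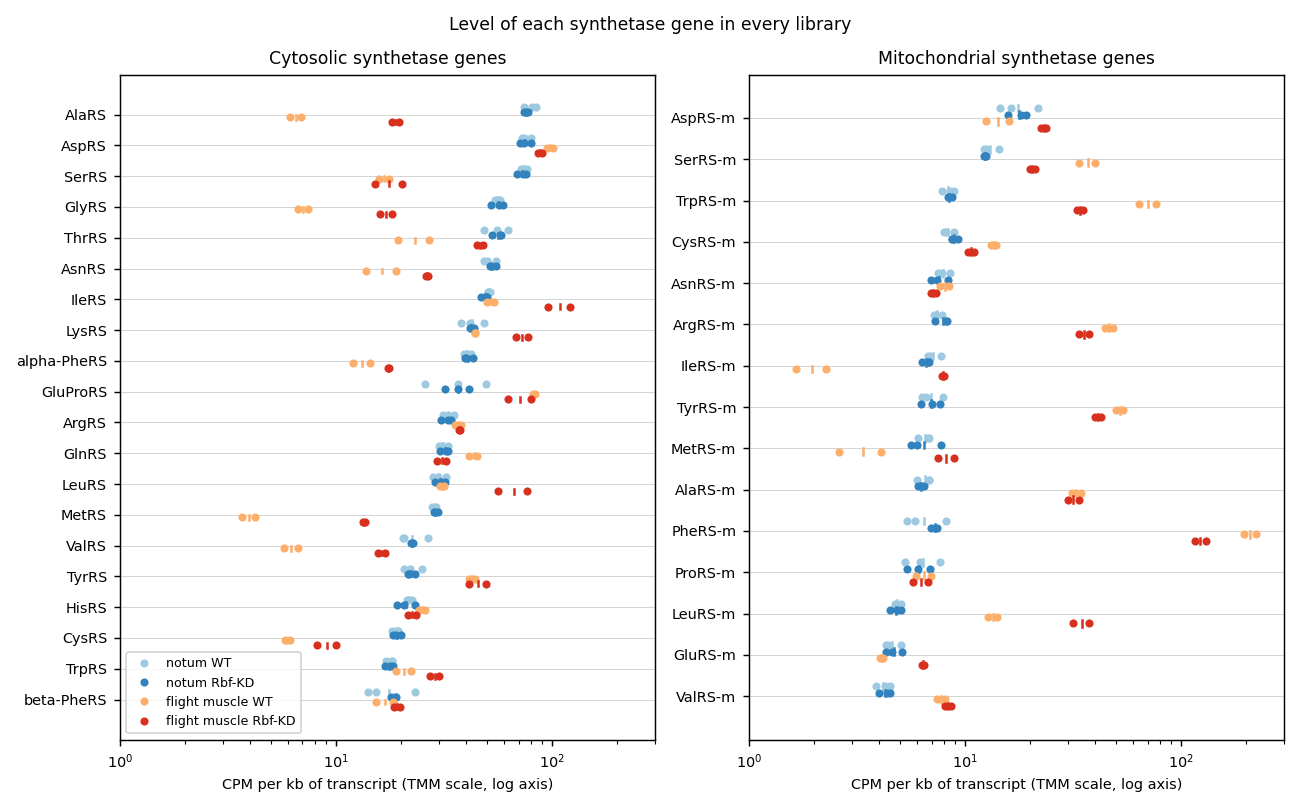
Level of each synthetase gene in every library, as CPM per kb of transcript on a log axis (TMM scale of all 10 libraries); each point is a library, coloured by tissue and genotype, and the short bars are group means, with genes ordered by their level in WT notum. Notum libraries of both genotypes lie on each other, while in flight muscle cytosolic means of WT span 3.96 to 97.9 and mitochondrial means 1.96 to 207 CPM per kb.

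The first comparison set WT flight muscle against WT notum, that is, differentiated muscle against the disc tissue that holds its precursors. The cytosolic synthetase genes split: 9 were lower in muscle, 4 were higher on the TMM scale and 7 did not pass the test, while 76.8% of all genes tested were called in this comparison, 33.3% higher and 43.4% lower. Their median log2 fold change was -0.01, against -0.50 over all genes. The 9 lower genes, AlaRS, GlyRS, MetRS, SerRS, ValRS, CysRS, AsnRS, alpha-PheRS and ThrRS, were lower under DESeq2 scaling too and without any single library. They were also lower by library total, where the shift of all genes fixed that direction in advance.

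AlaRS, the alanyl enzyme, had 271, 259 and 238 CPM in WT notum and 19.7 and 22.0 CPM in WT muscle. It was 12.3-fold lower in muscle (log2 -3.62, SE 0.12, adjusted p = 9.25e-09), and the groups were far apart. GlyRS, the glycyl enzyme, had 142, 146 and 138 CPM in notum and 18.9 and 16.9 CPM in muscle (log2 -2.99, SE 0.12, adjusted p = 2.80e-08). MetRS, which charges both initiator and elongator methionine tRNAs, had 99.2, 95 and 97.6 CPM in notum and 14.4 and 12.6 CPM in muscle (log2 -2.85, SE 0.09, adjusted p = 1.10e-08). In each of these genes the lowest notum library was several times the highest muscle library. The subunits of the cytosolic phenylalanyl enzyme parted: alpha-PheRS had 71.6, 66.4 and 68.5 CPM in notum and 20.4 and 24.5 CPM in muscle (log2 -1.62, SE 0.10, adjusted p = 6.76e-07). For beta-PheRS the values were 27.8, 45.6 and 29.9 CPM in notum and 30.2 and 36.1 CPM in muscle, with overlapping groups (log2 -0.06, adjusted p = 0.806). Within a library, alpha-PheRS had 2.58, 1.45 and 2.29 counts per count of beta-PheRS in WT notum and 0.674 and 0.679 in WT muscle, a ratio without overlap. The remaining lower genes fell between ThrRS (log2 -1.26) and SerRS (log2 -2.15).

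The 4 cytosolic genes called higher in WT muscle on the TMM scale, GluProRS, TyrRS, GlnRS and AspRS, were all called lower under library-total scaling. GluProRS had 140, 266 and 199 CPM in WT notum, the widest spread relative to its mean of any cytosolic gene there, and 440 and 453 CPM in WT muscle (log2 1.15, SE 0.24, adjusted p = 0.00216, library total -1.59). TyrRS, the tyrosyl enzyme, had 39.1, 44.3 and 36.6 CPM in notum and 77.8 and 73.4 CPM in muscle (log2 0.92, SE 0.11, adjusted p = 5.74e-05, library total -1.83). For both genes every muscle library lay above every notum library on the TMM scale. GlnRS, the glutaminyl enzyme, had 76.1, 81.3 and 73.4 CPM in notum and 102 and 111 CPM in muscle (log2 0.47, SE 0.09, adjusted p = 0.00131, library total -2.28). AspRS, the aspartyl enzyme, had 180, 167 and 163 CPM in notum and 227 and 213 CPM in muscle (log2 0.37, SE 0.09, adjusted p = 0.00574, library total -2.38), and its call was lost without WT muscle replicate 1 (adjusted p = 0.0580). AspRS counts are uncertain, because 74.1% of the bases of its transcript lie in exons of other genes. Nmda1 and asRNA:CR45141 overlap it on the opposite strand and asRNA:CR43468 on the same strand. GluProRS (16.7% of bases, asRNA:CR46092) and GlnRS (1.06%, CG11858) also overlap another gene. IleRS, LeuRS, LysRS, TrpRS, HisRS and ArgRS did not pass the test on the TMM scale, with log2 values from 0.03 (IleRS) to 0.22 (TrpRS). All 20 cytosolic genes were called lower by library total, beside 10240 of all 13407 genes tested lower and 1464 higher.

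Among the mitochondrial synthetase genes 9 were higher in WT muscle on the TMM scale, 2 were lower and 4 did not pass the test. Their median log2 fold change was 0.88, against -0.50 over all genes. Calls over all genes tested came to 33.3% in the higher direction and 43.4% in the lower. PheRS-m had 8.22, 12.5 and 8.92 CPM in WT notum and 296 and 337 CPM in WT muscle, 32.1-fold higher (log2 5.0, SE 0.19, adjusted p = 2.31e-08). TrpRS-m, the mitochondrial tryptophanyl enzyme, had 21.0, 19.3 and 21.9 CPM in notum and 157 and 190 CPM in muscle (log2 3.07, SE 0.10, adjusted p = 1.25e-08). These 2 genes were also called higher under library-total scaling, beside 1464 of all 13407 genes tested, and no other synthetase gene was. Under that scaling PheRS-m stood at log2 2.26 (adjusted p = 1.59e-07) and TrpRS-m at log2 0.31 (adjusted p = 0.0408). Even so, 6.79% of all genes tested had a higher log2 fold change than PheRS-m on the TMM scale and 14.0% had a higher one than TrpRS-m.

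TyrRS-m and ArgRS-m came next on the TMM scale. TyrRS-m, the mitochondrial tyrosyl enzyme, was higher at log2 2.91 and stood at 0.16 without a call by library total (adjusted p = 0.154). ArgRS-m, the mitochondrial arginyl enzyme, was higher at log2 2.64 and stood at -0.12 without a call by library total (adjusted p = 0.195). AlaRS-m (log2 2.32), SerRS-m (1.5), LeuRS-m (1.47), ValRS-m (0.88) and CysRS-m (0.70) were higher on the TMM scale and lower by library total, at log2 values from -0.43 for AlaRS-m to -2.06 for CysRS-m. SerRS-m had 18.2, 21.3 and 18.5 CPM in WT notum and 49.9 and 59.1 CPM in WT muscle (TMM log2 1.5, SE 0.10, adjusted p = 1.14e-06, library total -1.25). LeuRS-m had 14.3, 15.2 and 14.4 CPM in notum and 42.3 and 38.7 CPM in muscle (TMM log2 1.47, SE 0.10, adjusted p = 9.76e-07, library total -1.28). For both genes the groups were well apart on the TMM scale, with small spread.

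IleRS-m and MetRS-m, the mitochondrial isoleucyl and methionyl enzymes, were lower in WT muscle under each of the 3 scalings. By library total the shift of all genes fixed that direction. On the TMM scale they went against the direction of most of their class. IleRS-m had 19.5, 19.9 and 22.4 CPM in WT notum and 4.79 and 6.56 CPM in WT muscle (log2 -1.86, SE 0.14, adjusted p = 2.64e-06). MetRS-m had 12.5, 11.3 and 12.6 CPM in notum and 4.86 and 7.63 CPM in muscle (log2 -0.96, SE 0.22, adjusted p = 0.00311). Neither overlapped between the tissues. AspRS-m, GluRS-m, AsnRS-m and ProRS-m did not pass the test on the TMM scale, with log2 values between -0.30 and 0.02. Markers of other cells moved with the tissue as well. Of all 13407 genes tested, 33.3% were higher and 43.4% lower on the TMM scale. By library total 1464 of them were higher and 10240 lower. Hemocyte markers went from between 147 and 155 CPM in WT notum to between 1475 and 1651 CPM in WT muscle (7 of 7 called higher on the TMM scale, 4 of 7 by library total). Neuron markers went from between 31 and 48.5 CPM to between 92.5 and 115.3 CPM (4 of 4 higher, by library total 0 higher and 1 lower). Fat body markers went from between 79.0 and 413 CPM to between 618 and 746 CPM (1 of 7 higher, by library total 0 higher and 4 lower). Of 6 tracheal markers 3 were higher and 3 lower (1 and 5 by library total). The part of these cells in the synthetase values was not tested.

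**Figure D2:**
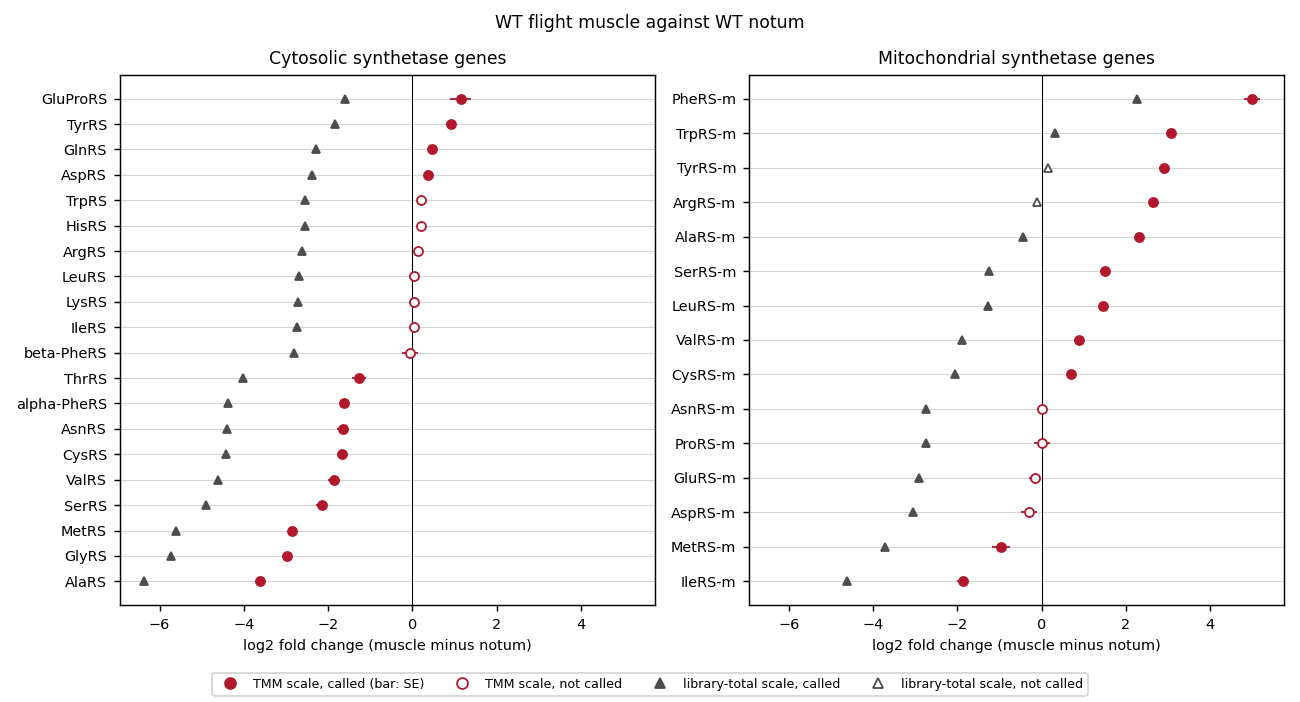
WT flight muscle against WT notum for each synthetase gene, as log2 fold change (muscle minus notum); circles with SE bars are on the TMM scale, triangles on the library-total scale, and filled symbols passed the test. On the TMM scale PheRS-m stands at 5.0 and AlaRS at -3.62; the 4 cytosolic genes and 7 of the 9 mitochondrial genes called higher on the TMM scale are not called higher by library total.

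For 12 amino acids the table holds a cytosolic and a mitochondrial gene, and the ratio of their counts within a library is free of scaling. In WT muscle the mitochondrial gene had a higher ratio to its cytosolic partner than in WT notum for 10 amino acids and a lower one for aspartate and isoleucine, and the groups overlapped for 0 of the 12 pairs. These ratios are descriptions without a test, and no share over other pairs of genes was computed to set beside them. For single genes the WT tissues did not overlap in CPM for 16 cytosolic genes (7 higher and 9 lower in muscle) and 12 mitochondrial genes (9 and 3), beside 84.9% of all genes, 35.7% higher and 49.2% lower. AlaRS-m had 0.0810, 0.0749 and 0.0921 counts per count of AlaRS in WT notum and 5.09 and 5.04 in WT muscle, a ratio 61.5-fold higher. SerRS-m over SerRS was 0.124, 0.150 and 0.135 in WT notum and 1.65 and 1.76 in WT muscle. TrpRS-m over TrpRS was 0.690, 0.674 and 0.717 in WT notum and 4.90 and 5.07 in WT muscle. Within a library, the cytosolic gene of these 3 pairs had more counts than its mitochondrial partner in WT notum and fewer in WT muscle. IleRS-m over IleRS went the other way, from 0.0965, 0.101 and 0.114 in WT notum to 0.0246 and 0.0311 in WT muscle. AspRS-m over AspRS was 0.334, 0.544 and 0.413 in WT notum and 0.292 and 0.243 in WT muscle. Outside the 12 pairs, GluRS-m over GluProRS was 0.0613, 0.0275 and 0.0377 in WT notum and 0.0160 and 0.0152 in WT muscle. ProRS-m over GluProRS was also lower, 0.0830, 0.0299 and 0.0474 in WT notum and 0.0239 and 0.020 in WT muscle. In contrast, PheRS-m over alpha-PheRS was 0.115, 0.188 and 0.130 in WT notum and 14.5 and 13.8 in WT muscle, the widest change of any ratio computed.

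**Figure D3:**
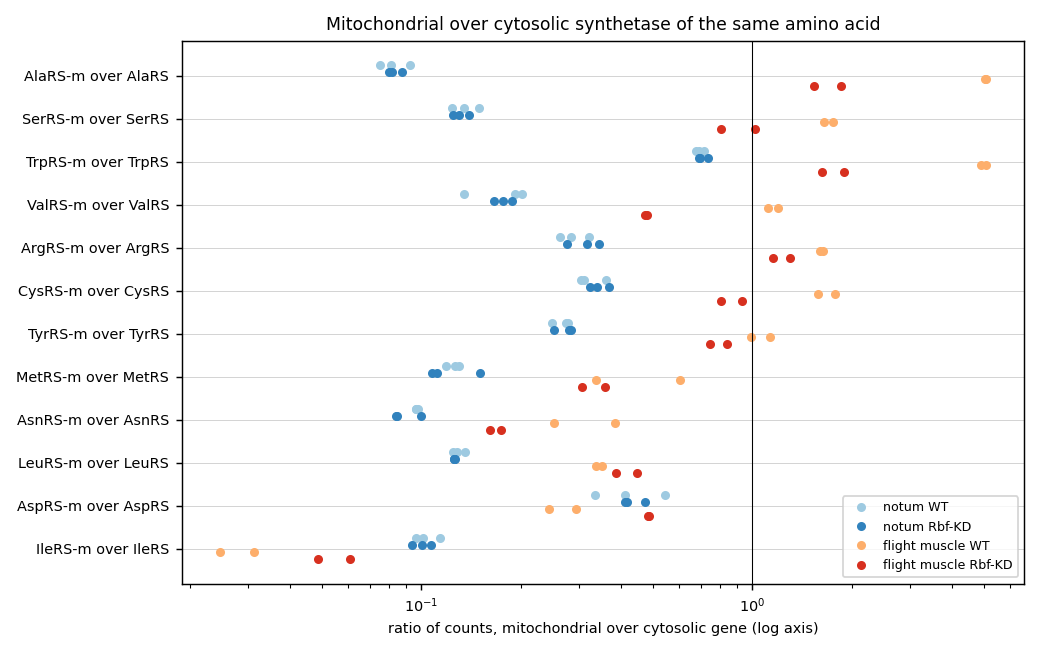
Counts of the mitochondrial synthetase gene per count of the cytosolic gene of the same amino acid, 1 point per library on a log axis, for 12 amino acids. AlaRS-m over AlaRS lies near 0.08 in notum, above 5 in WT muscle and at 1.54 and 1.85 in muscle labelled Rbf-KD, while IleRS-m over IleRS lies below its notum values in every muscle library.

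Summed over genes, the cytosolic class took between 0.392% and 0.420% of gene counts in the 6 notum libraries, 0.0476% and 0.0478% in WT muscle and 0.126% and 0.134% in muscle labelled Rbf-KD. The mitochondrial class took between 0.0491% and 0.0534% in notum, 0.0276% and 0.0303% in WT muscle and 0.0506% and 0.0501% in muscle labelled Rbf-KD. Mitochondrial counts per cytosolic count were therefore between 0.124 and 0.132 in notum, 0.580 and 0.634 in WT muscle and 0.400 and 0.373 in muscle labelled Rbf-KD. The classes were also carried by different genes. PheRS-m made up between 3.08% and 4.22% of the mitochondrial class in notum, 29.7% and 30.7% in WT muscle and 20.7% and 21.7% in muscle labelled Rbf-KD. GluProRS made up between 6.50% and 11.5% of the cytosolic class in notum and 25.6% and 26.2% in WT muscle, and AlaRS between 10.9% and 12.6% in notum and 1.15% and 1.27% in WT muscle. Transcripts of the mitochondrial genome itself took between 1.15% and 1.57% of gene counts in notum, 22.4% and 20.2% in WT muscle and 16.1% and 16.8% in muscle labelled Rbf-KD.

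The second comparison set the libraries labelled Rbf-KD against WT in flight muscle, where the Rbf counts went against the label. Of the cytosolic genes 9 were higher in the libraries labelled Rbf-KD, 1 was lower on the TMM scale and 10 did not pass the test, beside 39.8% of all genes called, 19.4% higher and 20.3% lower. Their median log2 fold change was 0.48, against 0.10 over all genes. The 9 higher genes, MetRS, AlaRS, ValRS, GlyRS, LeuRS, IleRS, ThrRS, LysRS and AsnRS, were called higher under each of the 3 scalings. By library total the shift of all genes fixed that direction. All 20 cytosolic genes were called higher by library total, beside 7449 of all 10930 genes tested higher and 554 lower.

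MetRS had 5.73 and 5.21 CPM in WT muscle and 18.2 and 17.6 CPM in muscle labelled Rbf-KD, on the TMM scale of the 4 muscle libraries. This was 3.27-fold higher (log2 1.71, SE 0.15, adjusted p = 0.00124). AlaRS had 7.87 and 9.12 CPM in WT and 24.8 and 22.5 CPM in those labelled Rbf-KD (log2 1.48, SE 0.15, adjusted p = 0.00177). ValRS, the valyl enzyme, had 7.77 and 9.37 CPM in WT and 21.0 and 22.0 CPM in those labelled Rbf-KD (log2 1.33, SE 0.16, adjusted p = 0.00255). In all 3 genes both libraries labelled Rbf-KD stood well above both WT libraries. GlyRS had 7.54 and 7.01 CPM in WT and 18.3 and 15.8 CPM in those labelled Rbf-KD (log2 1.22, SE 0.15, adjusted p = 0.00316). These 4 genes, which were also among the 9 lower in WT muscle than in WT notum, kept their calls without any single muscle library. On the scale of all 10 libraries their levels in muscle labelled Rbf-KD stayed under those of WT notum: MetRS had 46.3 and 45.6 CPM against between 95 and 99.2 CPM, and AlaRS 62.8 and 58.4 CPM against between 238 and 271 CPM.

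The other higher cytosolic genes rested on fewer libraries. Where a library is left out, 1 arm has a single library, which is taken to vary like the other group. IleRS rose from 77.6 and 87.2 CPM to 148 and 183 CPM (log2 1.01, adjusted p = 0.00654), and its call was lost without WT replicate 1 (adjusted p = 0.0558). LeuRS rose by log2 1.04 and lost its call without WT replicate 1 or 2 (highest adjusted p = 0.0626). ThrRS (log2 0.96) lost it without Rbf-KD replicate 1 or 2 (highest adjusted p = 0.0763). LysRS (log2 0.67) lost it without WT replicate 1 or Rbf-KD replicate 2 (highest adjusted p = 0.0590), and AsnRS (log2 0.64) without WT replicate 2 or either library labelled Rbf-KD (highest adjusted p = 0.165). IleRS and LeuRS had not differed by the test between WT muscle and WT notum on the TMM scale, and in muscle labelled Rbf-KD IleRS made up 17.7% and 19.5% of the cytosolic class, the largest share of any cytosolic gene.

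GlnRS was the single cytosolic gene called lower, and it was called higher by library total. It had 40.6 and 46.0 CPM in WT muscle and 28.5 and 30.7 CPM in muscle labelled Rbf-KD (TMM log2 -0.55, SE 0.13, adjusted p = 0.0217, library total 0.56, adjusted p = 0.0081). Its call was lost without WT replicate 2 or either library labelled Rbf-KD (highest adjusted p = 0.119). GluProRS had 175 and 188 CPM in WT and 134 and 167 CPM in those labelled Rbf-KD and did not pass the test (TMM log2 -0.27, SE 0.16, adjusted p = 0.219), while library-total scaling called it higher (0.83). SerRS, ArgRS, TyrRS and beta-PheRS had overlapping groups, with log2 values between -0.03 and 0.12. For 16 of the 20 cytosolic genes the genotypes did not overlap in CPM, 12 higher and 4 lower in those labelled Rbf-KD, and the same held for 74.2% of all genes tested, 40% higher and 34.2% lower.

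Among the mitochondrial genes 4 were higher in muscle labelled Rbf-KD, 4 were lower on the TMM scale and 7 did not pass the test. Their median log2 fold change was -0.11, against 0.10 over all genes. Calls over all genes tested came to 19.4% in the higher direction and 20.3% in the lower. IleRS-m had 1.91 and 2.72 CPM in WT and 8.98 and 8.89 CPM in those labelled Rbf-KD, 3.86-fold higher (log2 1.95, SE 0.23, adjusted p = 0.00255). LeuRS-m, the mitochondrial leucyl enzyme, had 16.9 and 16.1 CPM in WT and 37.7 and 43.6 CPM in those labelled Rbf-KD (log2 1.30, SE 0.13, adjusted p = 0.00173). Both genes were called higher under each scaling and without any single library. MetRS-m (log2 1.22, adjusted p = 0.0236) and AspRS-m (log2 0.64, adjusted p = 0.0193) were also higher under each scaling. MetRS-m lost its call without WT replicate 1 or either library labelled Rbf-KD (highest adjusted p = 0.104), and AspRS-m without WT replicate 2 or either library labelled Rbf-KD (highest adjusted p = 0.113).

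The 4 mitochondrial genes called lower were TrpRS-m, SerRS-m, PheRS-m and ArgRS-m, and none of them was lower by library total. TrpRS-m had 62.6 and 78.8 CPM in WT muscle and 34.2 and 31.6 CPM in muscle labelled Rbf-KD (TMM log2 -1.10, SE 0.16, adjusted p = 0.00447, library total 0.01, adjusted p = 0.953). SerRS-m had 19.9 and 24.5 CPM in WT and 12.2 and 11.3 CPM in those labelled Rbf-KD (TMM log2 -0.91, SE 0.16, adjusted p = 0.00872, library total 0.20, adjusted p = 0.282). PheRS-m had 118 and 140 CPM in WT and 69.5 and 76.2 CPM in those labelled Rbf-KD (TMM log2 -0.82, SE 0.14, adjusted p = 0.00896, library total 0.29, adjusted p = 0.0758). On the TMM scale both WT libraries stood above both libraries labelled Rbf-KD in these 3 genes. Without Rbf-KD replicate 2 the SerRS-m call was lost (adjusted p = 0.0563), and without Rbf-KD replicate 1 the PheRS-m call was lost (adjusted p = 0.0536). ArgRS-m (TMM log2 -0.44, adjusted p = 0.0425) was called higher by library total (0.67), lost its call without any of the 4 libraries (highest adjusted p = 0.192) and with the replicate number as a block (adjusted p = 0.0575), and 11.8% of its bases lie in exons of mRpS9.

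**Figure D4:**
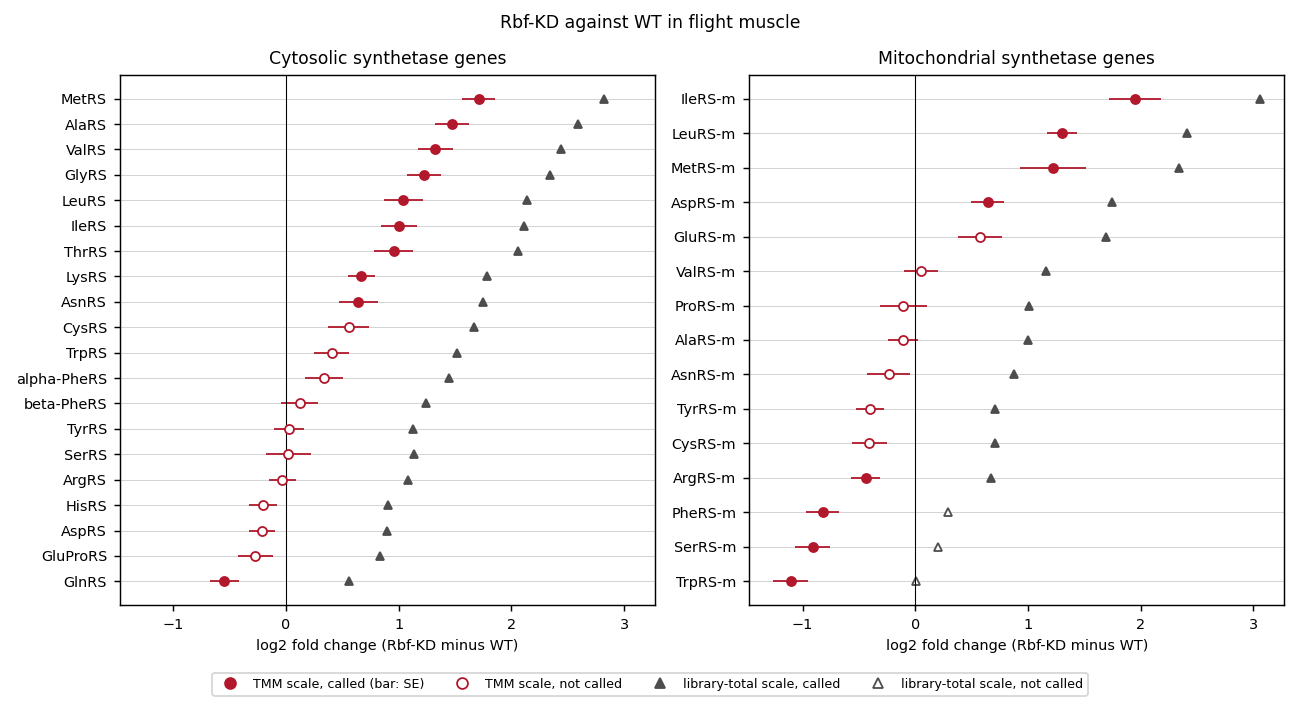
Libraries labelled Rbf-KD against WT in flight muscle for each synthetase gene, as log2 fold change; circles with SE bars are on the TMM scale, triangles on the library-total scale, and filled symbols passed the test. MetRS (1.71), AlaRS (1.48), IleRS-m (1.95) and LeuRS-m (1.30) are right of 0 on both scales, while GlnRS (-0.55) and TrpRS-m (-1.10) are left of 0 only on the TMM scale.

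Within a library, the ratio of the mitochondrial to the cytosolic gene was lower in muscle labelled Rbf-KD than in WT muscle for 8 of the 12 amino acids. It was higher for aspartate, isoleucine and leucine, and overlapped for methionine. No share over other pairs of genes was computed, and for single genes the genotypes did not overlap for 74.2% of all genes tested. AlaRS-m over AlaRS was 5.09 and 5.04 in WT muscle and 1.54 and 1.85 in muscle labelled Rbf-KD. TrpRS-m over TrpRS was 4.90 and 5.07 in WT muscle and 1.89 and 1.62 in muscle labelled Rbf-KD. Both ratios lay above those of all notum libraries. ValRS-m over ValRS was 1.20 and 1.12 in WT muscle and 0.479 and 0.475 in muscle labelled Rbf-KD. Within a library, ValRS-m thus had more counts than ValRS in WT muscle and fewer than ValRS in muscle labelled Rbf-KD.

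Markers of other cells moved with the genotype in flight muscle, beside both groups of synthetase genes. The 7 fat body genes summed to between 618 and 746 CPM in WT muscle and between 7645 and 8070 CPM in muscle labelled Rbf-KD on the scale of all 10 libraries, with 7 of 7 called higher. The 7 hemocyte genes summed to between 1475 and 1651 CPM in WT and between 2724 and 2937 CPM in those labelled Rbf-KD, with 4 called higher. The 6 tracheal genes summed to between 891 and 898 CPM in WT and between 403 and 432 CPM in those labelled Rbf-KD, with 4 called lower. By library total 7 fat body and 7 hemocyte genes were called higher and 1 tracheal gene lower, beside 7449 of all 10930 genes tested higher and 554 lower. None of these markers was at or under 3 counts in any muscle library. The 4 neuron genes summed to between 92.5 and 115.3 CPM in WT and between 113 and 190 CPM in muscle labelled Rbf-KD, with 0 called on the TMM scale and 4 of 4 higher by library total. Disc epithelium genes were 0 of 6 called on the TMM scale and 4 of 6 higher by library total. Of 3 muscle precursor genes tested, 1 was higher and 1 lower on the TMM scale, and 2 were higher by library total. On the TMM scale all 10 sarcomere genes were lower in muscle labelled Rbf-KD, and by library total 5 were lower and 1 higher. The part of other cells in the synthetase differences was not tested.

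The third comparison set the genotypes against each other in notum, where the driver acts in the muscle precursors. By edgeR 0 of the 35 synthetase genes were called, beside 0.156% of all genes, 0.0738% higher and 0.0819% lower, and 0 of the 35 had an unadjusted p under 0.05; DESeq2 and limma-voom also called 0. With the replicate number as a block, 38 genes were called higher and 41 lower in notum, against 9 and 10 without it, and 0 of them were synthetase genes. Log2 fold changes lay between -0.14 (IleRS-m) and 0.13 (PheRS-m), with standard errors between 0.07 and 0.22. IleRS-m had 37.6, 36.7 and 41.2 CPM in WT and 36.8, 32.9 and 35.1 CPM in those labelled Rbf-KD (log2 -0.14, SE 0.08, adjusted p = 1.00), on the TMM scale of the 6 notum libraries. SerRS-m had 35.0, 39.2 and 34.1 CPM in WT and 34.4, 32.7 and 32.9 CPM in those labelled Rbf-KD (log2 -0.12, SE 0.08, adjusted p = 1.00). Both genes had overlapping groups. AlaRS had 522, 478 and 437 CPM in WT and 446, 439 and 450 CPM in those labelled Rbf-KD (log2 -0.11, SE 0.09, adjusted p = 1.00). IleRS had 390, 362 and 362 CPM in WT and 344, 353 and 349 CPM in those labelled Rbf-KD (log2 -0.09, SE 0.07, adjusted p = 1.00). IleRS was the 1 synthetase gene whose groups did not overlap, lower in those labelled Rbf-KD, and the same held for 8.28% of all genes, 2.93% higher and 5.36% lower. RNA of disc epithelium, in which the driver does not act, is part of these libraries, and a change in the precursors alone was not detectable apart from it.

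The difference of the genotype effect between the tissues was tested in a fit of all 10 libraries. On the TMM scale it was positive for 11 cytosolic genes and negative for 1 (GlnRS), and positive for 4 and negative for 5 mitochondrial genes, beside 30.3% of all genes called, 17.2% positive and 13.1% negative. With the replicate number as a block GluRS-m (adjusted p = 0.0846) and CysRS-m (adjusted p = 0.0591) were no longer called, which left 3 positive and 4 negative mitochondrial genes. Without both notum libraries of replicate 1 the counts were 8 and 1 for cytosolic and 3 and 4 for mitochondrial genes. MetRS (log2 1.75, SE 0.12, adjusted p = 1.74e-05) and AlaRS (log2 1.61, SE 0.14, adjusted p = 5.85e-05) had the smallest p among cytosolic genes. IleRS-m (log2 2.12, SE 0.19, adjusted p = 6.49e-05) and LeuRS-m (log2 1.38, SE 0.14, adjusted p = 1.27e-04) had the smallest p among mitochondrial genes. Under all 3 scalings 8 cytosolic and 3 mitochondrial genes kept a positive difference, among them these 4. Library total moved the median of all genes from 0.13 to 1.17, so it could not turn a positive difference. None of the 6 negative differences held under library-total scaling. GluRS-m lost its call without any one of the 10 libraries (highest adjusted p = 0.144), TrpRS without 8 of them (highest 0.131), AsnRS and CysRS-m without 7 each (0.0830 and 0.104), ArgRS-m without 5 (0.118), CysRS without 3 (0.0733), and GlnRS and PheRS-m without 2 each (0.0703 and 0.0767).

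Genes that work beside the synthetases were counted from lists of the same pathway. Beside these counts stand the shares of all genes tested, 33.3% higher and 43.4% lower between the tissues (median log2 -0.50) and 19.4% higher and 20.3% lower between the muscle genotypes (median 0.10), on the TMM scale. By library total 1464 of 13407 genes were higher and 10240 lower between the tissues. Between the muscle genotypes 7449 of 10930 were higher and 554 lower by library total. AIMP1, AIMP2 and AIMP3, scaffold proteins of the multisynthetase complex, were all higher in WT muscle than in WT notum on the TMM scale (log2 1.11, 0.50 and 1.81) and lower by library total (-1.64, -2.26 and -0.95). Between the muscle genotypes AIMP1 fell on the TMM scale (log2 -0.86, adjusted p = 0.00603, library total 0.25 without a call) and Slimp, a relative of the mitochondrial seryl enzyme, rose (log2 0.77, adjusted p = 0.0285, 3.59% of bases in exons of Kal1). GatA, GatB and GatC, the subunits of the amidotransferase that makes mitochondrial glutaminyl-tRNA from glutamyl-tRNA, were higher in WT muscle on the TMM scale (3 of 3), while by library total all had values below 0 and 2 of 3 were called lower. GatC fell between the muscle genotypes on the TMM scale (log2 -1.04, library total 0.08), but its whole transcript overlaps Orc5 and PolG2 and its counts are uncertain.

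Of 8 mitochondrial translation factors, 8 were higher in WT muscle than in WT notum on the TMM scale (median log2 2.97), beside 33.3% of all genes, and 4 of 8 by library total, where 2 were lower. Between the muscle genotypes 5 of 8 were lower and 1 higher on the TMM scale (median -0.67), and 0 were lower and 5 higher by library total. mEFTu1, the mitochondrial elongation factor that carries charged tRNA to the ribosome, was higher in WT muscle (log2 4.29, library total 1.54) and lower in muscle labelled Rbf-KD on the TMM scale (log2 -1.18, adjusted p = 0.00298, library total -0.07). Cytosolic elongation factors were called 5 higher and 1 lower of 7 between the tissues on the TMM scale (1 higher and 6 lower by library total). Between the muscle genotypes 1 was higher and 2 were lower on the TMM scale (6 higher and 0 lower by library total). eEF1alpha2, an isoform of the cytosolic carrier of charged tRNA, was higher in WT muscle (log2 5.87, library total 3.12), and eEF1alpha1 rose in muscle labelled Rbf-KD (log2 0.92, adjusted p = 0.0079).

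Genes that make and modify tRNA were counted in the same way, on the TMM scale. Of 14 tRNA processing and modification genes, 11 were lower and 2 higher between the tissues (median log2 -0.99), beside 43.4% and 33.3% of all genes. Between the muscle genotypes 7 were higher, 1 was lower and 6 did not pass the test (median 0.74), beside 19.4% and 20.3% of all genes. RNaseZ, which trims the 3′ end of precursor tRNA, rose by log2 1.83 in muscle labelled Rbf-KD (adjusted p = 0.0019). Of the 8 genes of the RNA polymerase III list, 6 were lower between the tissues and 1 was higher (median -1.51). The higher one, Maf1, was called lower by library total (log2 -1.13). Between the muscle genotypes 6 genes of this list were higher and 0 lower (median 0.96). Polr3B, a core subunit, was at log2 -3.24 between the tissues and at 1.61 between the muscle genotypes (adjusted p = 0.00347). By library total no gene of either list was higher between the tissues or lower between the muscle genotypes. In notum 0 genes of these lists were called between the genotypes by edgeR.

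Regulators known to act on synthetase genes were measured as well. Myc, a transcription factor that drives ribosome and translation genes, was lower in WT muscle than in WT notum (log2 -3.15, adjusted p = 1.51e-06) and higher in muscle labelled Rbf-KD than in WT muscle (log2 2.14, adjusted p = 7.73e-04). Its counts are uncertain, since 61.2% of its bases lie in exons of CG12535 and lncRNA:CR44999. Of the 6 genes of the Myc and nucleolus list, 4 were higher and 1 lower between the muscle genotypes on the TMM scale (median 1.99) and 5 were higher and 0 lower by library total. Fib, the nucleolar fibrillarin, rose by log2 3.36 (adjusted p = 0.00148). crc, the fly ATF4, which induces synthetase genes when amino acids run short, was higher in WT muscle on the TMM scale (log2 1.53, adjusted p = 3.20e-06), lower by library total (-1.23), and at log2 -0.04 between the muscle genotypes without a call (adjusted p = 0.824). By library total crc was called higher between the muscle genotypes (1.07), and 59.5% of its bases lie in exons of CG46314, so its counts are uncertain too. Of the 8 genes of the ATF4 and amino acid response list, 6 were higher and 1 lower between the tissues on the TMM scale (3 and 5 by library total). Between the muscle genotypes 1 was higher and 2 were lower on the TMM scale (6 and 0 by library total), the higher one being AsnS, asparagine synthetase (log2 1.00, adjusted p = 0.0042). The WT tissue comparison and the muscle genotype comparison share the WT muscle libraries.

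The choice of transcript mattered for few genes. In 21 of the 35 genes the table holds 1 transcript, and in all but 3 of the others every transcript had at least 96.9% of the counts of the one used. For ArgRS-m the transcript used gave log2 2.64 between the tissues and -0.38 between the muscle genotypes, and its other transcript gave 1.55 and -0.08, from mean log2 levels without a test. The second transcript of GluProRS gave 0.90 between the tissues where the one used gave 1.20. In all, 15 synthetase genes share exon bases with another gene, 8.91% in HisRS (Bx), 5.59% in GluRS-m (Serinc) and less than these in most others, and 20 share none. The 9 lower and 9 higher cytosolic calls described above included 2 overlapping genes in the first set, CysRS and SerRS, and none in the second.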

How the data were processed

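The deposited table held counts of reads per transcript, not normalized by the authors, for 10 libraries. Per the labels' protocols, ribosomal RNA was removed and stranded libraries were made from total RNA. The tools named in the submitters' processing notes were TopHat2 2.1.1 and Bowtie2 2.3.2, featureCounts of the Subread package, DESeq2 1.14.1, FastQC and bcl2fastq 2.17.1.14, and the build was BDGP5. The annotation version and strand setting are not given in the sources used here, so reads of overlapping genes could be shared or dropped.

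Of 29173 transcripts, 27011 (92.59%) were matched to 15259 genes by identifier with Ensembl release 115 (assembly BDGP6, names, lengths and overlaps only). The 2162 unmatched transcripts held between 9.86% and 20.34% of counts per library and were left out. Counts were tested with edgeR 4.0.16 (robust quasi-likelihood F test, TMM, filterByExpr with a minimum count of 10 and minimum total of 15, Benjamini-Hochberg over all genes, R 4.3.3), within each tissue for genotype and over all 10 libraries in 4 groups for the rest. The steps were tested on simulated counts. CPM per kb used transcript length. Alternatives were library-total and DESeq2 1.42.0 size factors, no filter, the DESeq2 Wald test, limma 3.58.1 voom, summed transcripts, other sets of libraries, each library left out, genes without overlap, and the replicate number as a block. A crossed block in muscle was chosen after seeing the data.

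The genes and lists were chosen with earlier results of these data known. Values in every library were given for the 4 genes of smallest adjusted p per class among those without overlap, those of largest fold each way and those called against their class. In notum and for the tissue difference the 2 of smallest p per class were used, and at most 2 per pathway list apart from AIMP2 and Maf1, named after their values were seen. Same-numbered notum libraries deviated together (r = 0.673, 0.602 and 0.242 across genes). So did WT replicate 2 with Rbf-KD replicate 3 (r = 0.579) and WT replicate 3 with Rbf-KD replicate 2 (r = 0.153). Deviations from a group mean cancel out, so a distant replicate 1 by itself sets the other replicates together. The data therefore set replicate 1 apart and do not show that numbers 2 and 3 pair the notum samples, and the labels do not say it. Same-numbered flight muscle libraries did not deviate together (r = -0.221). Promoter and protein sequences and genome coordinates were not analysed here.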

Additional observations from a re-analysis of the deposited data

Results flagged for a closer look

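The effect of genotype differed between flight muscle and notum, by the test of the difference itself on the TMM scale, for 21 synthetase genes, and for 19 with the replicate number as a block, where GluRS-m (adjusted p = 0.0846) and CysRS-m (adjusted p = 0.0591) were not called. The log2 difference (muscle effect minus notum effect) was positive for MetRS (1.75), AlaRS (1.61), ValRS (1.4), GlyRS (1.28), IleRS (1.12), LeuRS (1.08), ThrRS (1.00), LysRS (0.74), AsnRS (0.65), CysRS (0.60) and TrpRS (0.48) among cytosolic genes. It was positive for IleRS-m (2.12), LeuRS-m (1.38), MetRS-m (1.30) and GluRS-m (0.61) among mitochondrial genes. It was negative for GlnRS (-0.51), TrpRS-m (-1.06), PheRS-m (-0.92), SerRS-m (-0.77), ArgRS-m (-0.46) and CysRS-m (-0.44), and each of these 6 was positive by library total. In notum 0 of the 21 genes were called, and of the 7 fat body markers, all called higher in muscle labelled Rbf-KD, 0 were called there. They summed to between 79.0 and 413 CPM in WT notum and between 97.4 and 247 CPM in notum labelled Rbf-KD. Their part in these differences was not tested.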

How the results depend on the processing

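Library-total scaling was the alternative that turned directions, by construction of its shift of all genes. Under it the muscle genotype comparison called 7449 genes higher and 554 lower, with 20 cytosolic genes higher and 0 lower and 12 mitochondrial genes higher and 0 lower. The tissue comparison called 1464 genes higher and 10240 lower, with 0 and 20 cytosolic and 2 and 11 mitochondrial genes. The difference between tissues called 6989 and 365 genes, with 20 and 0 cytosolic and 12 and 0 mitochondrial genes. Log2 values of opposite sign to TMM in the muscle genotype comparison were those of ArgRS (1.08), AspRS (0.89), GlnRS (0.56), GluProRS (0.83), HisRS (0.90), AlaRS-m (1.00), ArgRS-m (0.67), AsnRS-m (0.87), CysRS-m (0.70), PheRS-m (0.29), ProRS-m (1.01), SerRS-m (0.20), TrpRS-m (0.0101) and TyrRS-m (0.71). Between the tissues they were ArgRS (-2.61), AspRS (-2.38), GlnRS (-2.28), GluProRS (-1.59), HisRS (-2.55), IleRS (-2.73), LeuRS (-2.70), LysRS (-2.71), TrpRS (-2.54), TyrRS (-1.83), AlaRS-m (-0.43), ArgRS-m (-0.12), AsnRS-m (-2.74), CysRS-m (-2.06), LeuRS-m (-1.28), ProRS-m (-2.74), SerRS-m (-1.25) and ValRS-m (-1.88). For the difference between tissues they were AspRS (0.94), GlnRS (0.56), GluProRS (0.87), HisRS (0.98), ArgRS-m (0.62), AsnRS-m (0.96), CysRS-m (0.64), PheRS-m (0.15), SerRS-m (0.31), TrpRS-m (0.0243) and TyrRS-m (0.73). In notum the DESeq2 Wald test called 61 genes higher and 70 lower, the fit with the replicate block 38 and 41, and the fit without both replicate 1 libraries 21 and 19, with 0 synthetase genes in each, and the cause was not tested. In the notum and 10-library fits with the replicate number as a block no other count of calls moved by over 1.5 times. The block ended the calls of no synthetase gene other than GluRS-m and CysRS-m for the difference between tissues. The muscle replicate block gave 1701 genes higher and 1921 lower, 9 and 1 cytosolic and 4 and 3 mitochondrial, and a crossed pairing, added after seeing the data, gave 2075 and 2102 genes, with 9 and 1 cytosolic and 4 and 3 mitochondrial. Between the tissues 7 cytosolic genes were higher with DESeq2 size factors and 7 with the DESeq2 Wald test, and for the difference the Wald test called 2651 genes lower. With the overlapping genes left out of the counts, so that fewer genes were counted, the muscle genotype comparison had 0 cytosolic genes lower and 2 mitochondrial higher, the tissue comparison 1 cytosolic higher, 5 mitochondrial higher and 1 lower, and the difference 0 cytosolic lower, 2 mitochondrial higher and 3 lower. Leaving out 1 library at a time gave between 1 and 8 genes higher and between 0 and 10 lower in notum. In muscle it gave between 1111 and 1303 higher and between 1285 and 1742 lower, with between 6 and 7 cytosolic higher, 0 and 1 cytosolic lower, 2 and 3 mitochondrial higher and 2 and 3 mitochondrial lower. For the difference it gave between 1707 and 2148 higher, 1384 and 2052 lower, 8 and 11 cytosolic higher, 0 and 1 cytosolic lower, 3 and 4 mitochondrial higher and 2 and 5 mitochondrial lower. Between the tissues each library left out in turn gave 4 and 9 cytosolic and 9 and 2 mitochondrial calls, although AspRS was lost without WT muscle replicate 1. Flight muscle had 2 libraries per genotype, which limits the precision of its spread.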
